A study of Mus musculus with 20 samples.

Results

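The DNA methylation and demethylation enzymes described here are the maintenance methyltransferase Dnmt1 and its partner Uhrf1, the de novo methyltransferases Dnmt3a and Dnmt3b with their cofactor Dnmt3l, the dioxygenases Tet1, Tet2 and Tet3, and the glycosylase Tdg. Their chromatin was described from a list of ATAC-seq peaks, that is, regions of open DNA into which a transposase could insert sequencing adapters. Every listed peak that overlapped 1 of the 9 genes or lay within 50000 bp of it was taken, which gave 150 of 102373 peaks. No peak belonged to the windows of 2 of these genes.

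The cells were ZHBTc4 mouse embryonic stem (ES) cells grown in serum with LIF and 2 kinase inhibitors, in which doxycycline (dox) switches off the endogenous Pou5f1 gene that encodes OCT4. All of them carried lentiviral YPet-MD, a fluorescent reporter of the cell cycle, and a lentiviral OCT4 driven by the PGK promoter. This OCT4 was SNAP-MD-OCT4 or SNAP-MD*-OCT4, whose degron is mutated. The mitotic degron of SNAP-MD-OCT4 strongly lowers the protein at the M-G1 transition but does not fully remove it. After 40 h in 1 µg/ml dox, cells of each construct were separated into the 4 gates late S/G2, S, late G1 and early G1, with 2 replicates of each of these 8 groups, and 4 unsorted libraries came from the same cells without dox. The listed peaks were merged over the 16 dox-treated libraries, so all of them come from cells in which the endogenous gene was switched off. The lines were sorted pools matched for their mean SNAP and YPet signal, and transgene levels in them are not those of the endogenous gene. The list gives only the chromosome, start and end of each peak. It holds no value for a library, a construct or a phase, so depth is unknown, no replicate error exists and the constructs could not be compared. A region that is not listed was not measured as closed.

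In mammals most methylated cytosines stand in CG dinucleotides. UHRF1 reads the hemimethylated DNA that replication leaves and brings DNMT1 to it, DNMT3A and DNMT3B set new marks with the help of the catalytically inactive DNMT3L, TET enzymes oxidise 5-methylcytosine, and TDG cuts out the more oxidised forms so that repair can restore the unmodified base. ES cells express much of this machinery, and cells kept with the 2 inhibitors are known for low methylation.

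The sequences just before the starts are shown for their content of CG. For each gene 120 bases before an annotated start are given, read in the direction of transcription from GRCm38, with every CG in capitals. The start is that of a principal transcript, except for Tdg, where the neighbouring start of Tdg-201 was used because its upstream bases hold no exon.
Dnmt1-201 (chr9:20952980-20953099, minus strand): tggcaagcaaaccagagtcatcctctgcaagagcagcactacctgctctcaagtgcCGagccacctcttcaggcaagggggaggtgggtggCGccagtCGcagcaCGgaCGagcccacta
Uhrf1-201 (chr17:56303201-56303320, plus strand): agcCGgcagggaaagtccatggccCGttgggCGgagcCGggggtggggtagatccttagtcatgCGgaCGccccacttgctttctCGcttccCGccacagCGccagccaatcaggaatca
Dnmt3a-201 (chr12:3806910-3807029, plus strand): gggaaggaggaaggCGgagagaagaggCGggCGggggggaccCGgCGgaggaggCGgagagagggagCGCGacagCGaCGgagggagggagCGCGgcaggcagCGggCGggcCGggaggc
Dnmt3b-202 (chr2:153649330-153649449, plus strand): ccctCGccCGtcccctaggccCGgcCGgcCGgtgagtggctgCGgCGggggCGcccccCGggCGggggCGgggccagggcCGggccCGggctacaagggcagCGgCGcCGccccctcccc
Dnmt3l-205 (chr10:78042167-78042286, plus strand): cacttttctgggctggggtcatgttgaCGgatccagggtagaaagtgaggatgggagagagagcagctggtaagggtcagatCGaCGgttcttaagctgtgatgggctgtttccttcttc
Tet1-206 (chr10:62899119-62899238, minus strand): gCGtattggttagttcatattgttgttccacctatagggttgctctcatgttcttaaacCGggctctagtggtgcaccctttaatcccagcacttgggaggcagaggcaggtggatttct
Tet2-201 (chr3:133544391-133544510, minus strand): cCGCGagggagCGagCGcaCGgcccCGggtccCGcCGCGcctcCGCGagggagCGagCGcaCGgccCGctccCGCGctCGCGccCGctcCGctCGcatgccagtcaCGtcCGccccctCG
Tet3-203 (chr6:83456393-83456512, minus strand): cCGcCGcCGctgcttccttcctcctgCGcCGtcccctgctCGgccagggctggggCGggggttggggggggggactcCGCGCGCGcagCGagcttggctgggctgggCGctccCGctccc
Tdg-201 (chr10:82629708-82629827, plus strand): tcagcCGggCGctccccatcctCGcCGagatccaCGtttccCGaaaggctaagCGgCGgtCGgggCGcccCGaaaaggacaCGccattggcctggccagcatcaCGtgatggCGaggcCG
Tet2 held 25 CG in this stretch, Dnmt3b 16, Dnmt3a and Tdg 15 each, Tet3 14, Uhrf1 9, Dnmt1 5, Dnmt3l 3 and Tet1 2. These counts hold for the start shown and differ between starts of a gene. The 120 bases before Dnmt1-203, in the same peak as Dnmt1-201, held 12 CG, and those before Tet1-207 held 6. The starts of Dnmt3l-205 and Tet1-206, the poorest in CG of the 9 shown, were also those that lay outside every listed peak.

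The matches to motifs of OCT4 and its partner SOX2 are shown because OCT4 is the factor that the constructs replace. The match to the composite OCT4::SOX2 motif is in capitals, with 20 bases on each side, and each is read on the strand of the motif. All 5 matches had 2 mismatches to the consensus, the most that was allowed.
Dnmt3b window, OCT4::SOX2 (chr2:153622689-153622743, plus strand): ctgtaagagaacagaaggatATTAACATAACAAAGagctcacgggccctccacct
Dnmt3b window, OCT4::SOX2 (chr2:153668682-153668736, minus strand): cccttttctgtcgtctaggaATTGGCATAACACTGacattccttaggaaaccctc
Dnmt3l window, OCT4::SOX2 (chr10:78048334-78048388, plus strand): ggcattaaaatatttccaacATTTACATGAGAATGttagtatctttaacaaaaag
Tet2 window, OCT4::SOX2 (chr3:133534463-133534517, plus strand): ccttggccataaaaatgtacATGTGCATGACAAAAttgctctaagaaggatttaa
Tet3 window, OCT4::SOX2 (chr6:83422015-83422069, minus strand): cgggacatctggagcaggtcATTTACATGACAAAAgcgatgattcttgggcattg
The perfect octamer ATGCAAAT, the motif of the OCT family, is in capitals below, with 11 bases on each side.
Dnmt3b window, octamer (chr2:153713031-153713060, plus strand): cctaattagacATGCAAATtgtaatggccc
Tet1 window, octamer (chr10:62804128-62804157, plus strand): tttgggaggtgATGCAAATctgttttacgg
Tet1 window, octamer (chr10:62947335-62947364, minus strand): gtcttccgcacATGCAAATaagacaaaatc
Tdg window, octamer (chr10:82652715-82652744, minus strand): agaatctgcaaATGCAAATggtgtctttag
The places of E2F words in the peaks over the starts of Dnmt1 and Uhrf1, and of NRF1 words in that of Dnmt1, are shown because few listed peaks held as many. Each line is 30 bases in the direction of transcription with the word, or its reverse complement, in capitals. Where the capitals run longer than 8 bases, words on opposite strands overlap.
Dnmt1, E2F (chr9:20952527-20952556, minus strand): cttagctgttgGCGCCAAAatgggtggggg
Dnmt1, E2F (chr9:20952572-20952601, minus strand): gcggggcagcgTTTGGCGCgggctgtgctt
Dnmt1, E2F (chr9:20952824-20952853, minus strand): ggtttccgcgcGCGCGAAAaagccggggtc
Dnmt1, NRF1 (chr9:20952590-20952619, minus strand): cagccagggcGCGCATGCGCggggcagcgt
Dnmt1, NRF1 (chr9:20952931-20952960, minus strand): cctccgttgcGCGCATGCGCactcccttcg
Dnmt1, NRF1 (chr9:20953348-20953377, minus strand): agggactgcagGCATGCGCcaccaccgcct
Uhrf1, E2F (chr17:56303387-56303416, plus strand): cctgagttttcGCGGGAAAaaaagtcctag
Uhrf1, E2F (chr17:56303743-56303772, plus strand): ctttgcaaaacTTTCCCGCgcgtggggtga
Uhrf1, E2F (chr17:56303892-56303921, plus strand): cttggcataagTTTCCCGCgcgtggctcgg
Uhrf1, E2F (chr17:56304023-56304052, plus strand): cgctaaagttcGCGGGAAAcgcgtggggtc
Uhrf1, E2F (chr17:56304117-56304146, plus strand): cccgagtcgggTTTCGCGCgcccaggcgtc

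The 9 windows held between 9 and 24 listed peaks each. Tet1 had 24, Dnmt1 20, Dnmt3b 19, Tet2 18, Uhrf1 17, Tet3 16, Dnmt3a 15, Dnmt3l 12 and Tdg 9. The median was 17 peaks per gene, beside a median of 10 with quartiles of 4 and 15 over the windows of all 21938 protein-coding genes. Windows differ in length because the genes do, from 20.2 kb for Uhrf1 to 108 kb for Dnmt3a. Per 100 kb of window, Uhrf1 was densest with 14.1 peaks, followed by Dnmt3b with 13.7, Dnmt1 with 13.1, Tet1 with 11.7, Tet2 with 9.92, Dnmt3l with 9.86, Tet3 with 8.13, Tdg with 7.44 and Dnmt3a with 7.20. The median of the 9 was 9.92 and that of all protein-coding genes 6.97, with quartiles of 2.87 and 11.5. Of all protein-coding genes, 86.7% had a lower density than Uhrf1 and 51.2% a lower density than Dnmt3a. Each density is 1 value with no replicate, so neighbours in this order cannot be ranked beyond it.

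**Figure D1:**
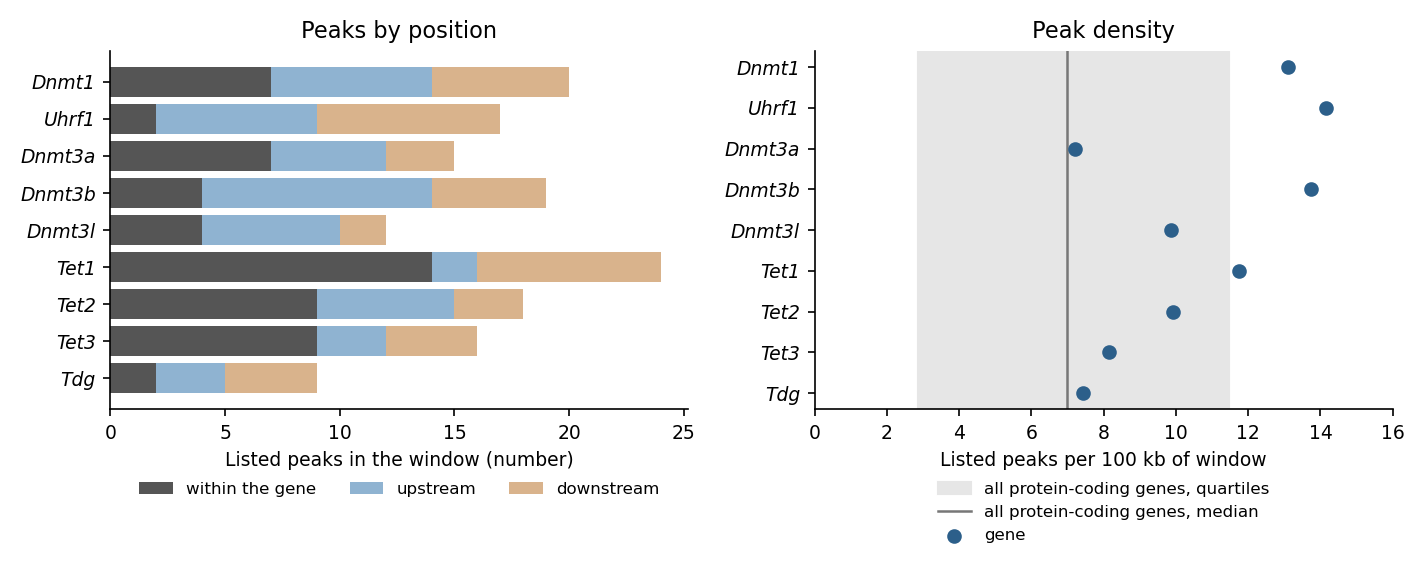
Left, number of listed peaks in the window of each gene, split into peaks that overlap the gene (black), lie upstream (blue) or lie downstream (tan). Right, listed peaks per 100 kb of window (points) beside the median (line) and quartiles (band) of all protein-coding genes. Uhrf1, Dnmt3b, Dnmt1 and Tet1 lie to the right of the band, and the other genes lie inside it to the right of the line.

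Of the 150 peaks, 58 overlapped their gene, 49 lay upstream and 43 downstream. Peaks at most 1000 bp away from an annotated transcription start of any gene are termed promoter-proximal, and the others distal. By this rule 56 peaks were promoter-proximal (37.3%, exact 95% Clopper-Pearson interval 29.6% to 45.6%), beside 25.1% of the whole list. Each window was drawn around a gene and so holds starts by the rule, whereas the whole list is not tied to genes. The share over the windows of all genes is not given here. Intervals here cover counting error only, since peaks are not replicates. Only 21 of the 56 lay near a start of the gene itself, and 35 lay near starts of other genes alone. Some of the 21 also covered a start of another gene, such as that of Aire in the Dnmt3l window. A start of the member gene was the nearest protein-coding start for 69 of the 150 peaks (46.0%, interval 37.8% to 54.3%). This share was uneven: all 18 peaks of Tet2, which had no other protein-coding gene in its window, and 15 of 24 for Tet1, but 1 of 17 for Uhrf1 and 2 of 9 for Tdg.

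**Figure D2:**
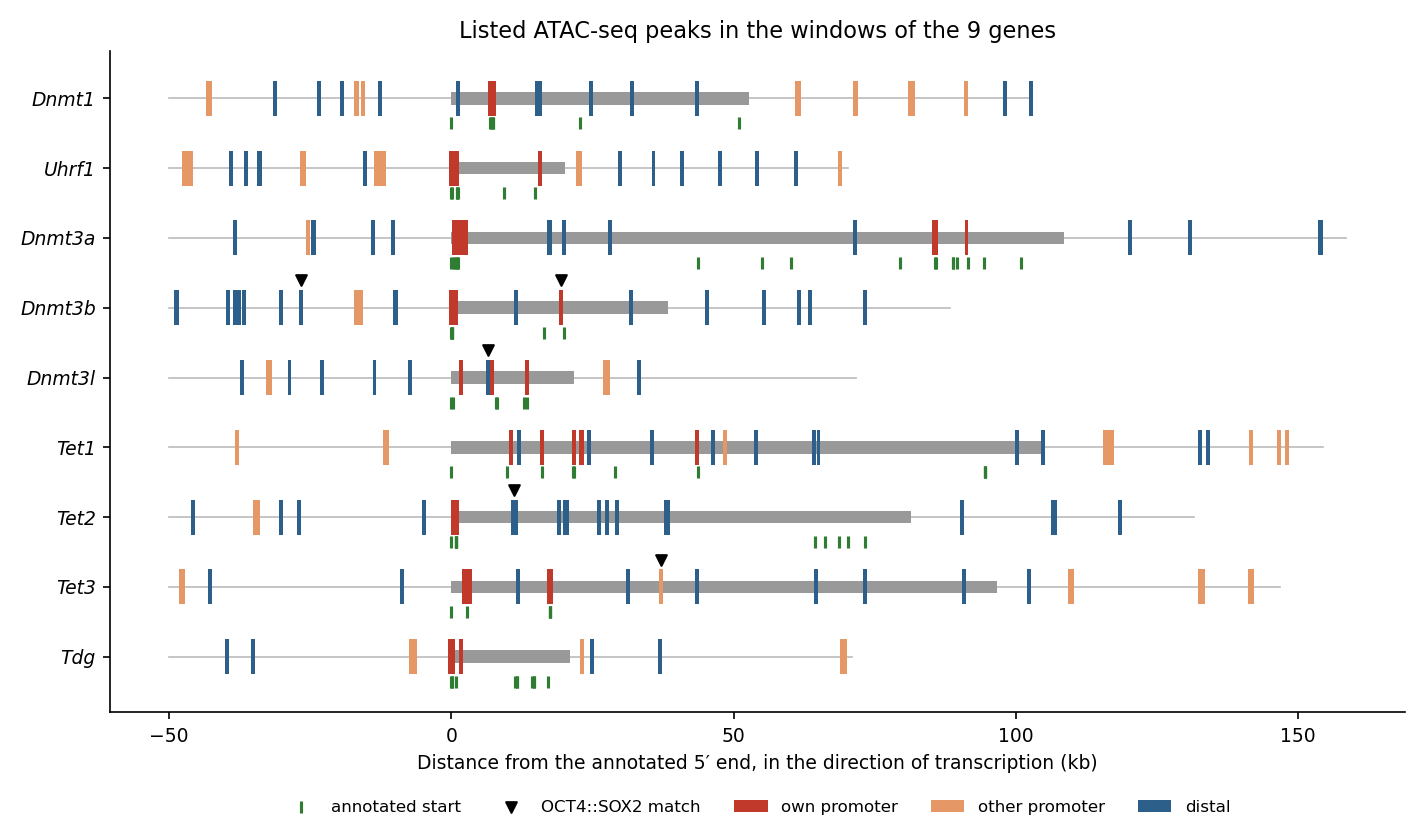
Position of every listed peak relative to the annotated 5′ end of its gene, in kb in the direction of transcription. Grey boxes are the genes, bars the peaks (red within 1000 bp of a start of the gene, orange within 1000 bp of a start of another gene only, blue distal, drawn at least 0.7 kb wide), green ticks the annotated starts and triangles the peaks with an OCT4::SOX2 match. The matches lie in the windows of Dnmt3b (2), Dnmt3l, Tet2 and Tet3, and no peak lies in the 3′ part of Tet2.

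Among the maintenance genes, Dnmt1 copies methylation onto the new strand after replication. It lies on chromosome 9 (20907209 to 20959888, minus strand). Its annotated 5′ end belongs to the transcript Dnmt1-202 and had no listed peak within 1000 bp: the nearest, of 283 bp, was 1069 bp away. The starts of the principal transcript Dnmt1-201, which encodes 1620 codons, and of 3 other transcripts lay 6909 to 7283 bp further in and all fell inside 1 peak of 1390 bp (20952069 to 20953458). This peak held 68 CG, with a CpG observed/expected ratio, the count of CG relative to that from the C and G content, of 0.53. It held E2F words at 3 places and NRF1 words at 3 places, as shown in the sequences above. For each of these counts, 15 of the 102373 listed peaks had as many or more. Inside the gene 5 further peaks followed, all in introns, among them a pair in intron 1 at 15.1 and 15.7 kb from the 5′ end and others in introns 8, 12 and 27. The largest gap between neighbouring peaks, 17.3 kb, ran across the 3′ end of the gene. The other 13 peaks of the window lay outside the gene, 7 of them within 1000 bp of starts of other genes, including those of Ppan, Eif3g, S1pr2 and Mrpl4.

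Uhrf1, which brings DNMT1 to hemimethylated DNA, lies on chromosome 17 (56303321 to 56323486, plus strand). A single peak of 1618 bp (56302967 to 56304584) covered all 5 of its protein-coding starts, which fall into an upstream pair and a group about 1 kb downstream. It held 112 CG, with a ratio of 0.74. E2F words stood at 5 places in it, 4 of them between 436 and 810 bp past the first start. Of the whole list, 3 peaks held 5 or more such places, this one included. The only other listed peak in the gene was a narrow one of 159 bp in intron 13 (56318878 to 56319036), and 14.3 kb without a listed peak separated the pair. The high density of the Uhrf1 window thus came from its flanks, with 7 peaks upstream and 8 downstream. Of the 8 downstream, 7 lay within Kdm4b, a histone demethylase gene, and 1 at its start.

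Of the de novo enzymes, Dnmt3a lies on chromosome 12 (3806007 to 3914443, plus strand) and had the widest of all 150 peaks. That peak spanned 2829 bp (3806038 to 3808866), began 31 bp past the annotated 5′ end and covered 5 starts, those of both principal transcripts of 908 codons included. In the whole list, 52 peaks were as wide or wider. The peak held 302 CG, a number that 9 listed peaks reached, with a ratio of 0.78. It held the GC box GGGCGG, the word of SP and KLF factors, at 23 places, and no other listed peak reached that number. A separate peak of 1088 bp (3891185 to 3892272) lay 85.7 kb into the gene, over the starts of Dnmt3a-203 and Dnmt3a-205, which encode 689 codons against 908 in the long form. It held 52 CG with a ratio of 0.51. Between the promoter and this internal start lay 3 peaks in intron 1, a gap of 43.0 kb with no listed peak (3834262 to 3877255) and 1 peak in intron 6. The other 11 of its 18 annotated starts, the 5′ end included, lay outside listed peaks.

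Upstream of Dnmt3a, at 10.4 kb from the 5′ end, a distal peak of 436 bp (3795440 to 3795875) held the KLF word CCACACCC at 7 places. In the whole list 16 peaks held as many. This peak was singled out after its values were seen. The words are shown in capitals because they recur every 31 to 41 bases in a tandem array, of which 169 of 214 bases are soft-masked as repeats in the reference.
Dnmt3a upstream peak (chr12:3795667-3795880, plus strand): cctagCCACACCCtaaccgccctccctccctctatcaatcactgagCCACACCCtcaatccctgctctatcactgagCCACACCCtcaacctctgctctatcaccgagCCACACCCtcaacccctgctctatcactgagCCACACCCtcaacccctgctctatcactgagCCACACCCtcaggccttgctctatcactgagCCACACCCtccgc

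Dnmt3b lies on chromosome 2 (153649450 to 153687730, plus strand), with the related gene Dnmt3c downstream. A peak of 1528 bp (153649023 to 153650550) covered all 4 of its protein-coding starts. It held 125 CG, with a ratio of 0.75, and 6 matches to the GC box. Inside the gene 3 further peaks lay in introns 1, 7 and 20. The one in intron 7 (153668659 to 153669173, 515 bp) lay 197 bp from the start of a non-coding transcript and held both an OCT4::SOX2 match and a CTCF match, the word of the factor that marks insulators. Upstream, 10 peaks lay within 50000 bp, 5 of them between 36.7 and 48.7 kb from the 5′ end. A distal peak 26.7 kb upstream (153622361 to 153623125, 765 bp), in an intron of the neighbour Commd7, held the other OCT4::SOX2 match, 27 bp from the centre of the peak. All 10 upstream peaks lay nearer to the start of Commd7 than to that of Dnmt3b. Of the 5 downstream peaks, a peak of 288 bp in an intron of Dnmt3c (153712811 to 153713098) held a perfect octamer.

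Dnmt3l, the cofactor of both enzymes, lies on chromosome 10 (78041947 to 78063622, plus strand) and was unlike them. Its annotated 5′ end lay 1255 bp from the nearest peak, and its 3 principal starts lay 915, 594 and 711 bp from one. The only one of its 6 starts inside a peak (78055130 to 78055592, 463 bp) was that of 3 transcripts of at most 126 codons, 13.4 kb into the gene, and the 300 bases around it had a CpG ratio of 0.11. The peak closest to the 5′ end (78043202 to 78044038, 837 bp) covered a start of Aire, a transcriptional regulator of the thymus, and held E2F words at 2 places. In intron 2 a peak of 491 bp (78048115 to 78048605) held an OCT4::SOX2 match 1 bp from its centre. This peak and its neighbour of 301 bp were 1237 and 594 bp from the start of Dnmt3l-201. The 13.2 kb after the peak over the start 13.4 kb into the gene held no listed peak.

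Among the oxidising enzymes, Tet1 lies on chromosome 10 (62804570 to 62908996, minus strand) and had the most listed peaks of the 9 genes. Its annotated 5′ end, that of the short transcript Tet1-208, was 10211 bp from the nearest peak. The principal start, Tet1-206, which encodes 2039 codons, lay 333 bp from a peak of 761 bp (62898025 to 62898785). Its region was poor in CpG, with a ratio of 0.26. A CpG-rich peak of 816 bp with a ratio of 0.62 (62886914 to 62887729) lay 21.7 kb from the 5′ end over the starts of Tet1-207 and Tet1-210, and it is there that RefSeq places the promoter of the gene. A neighbouring peak of 799 bp (62885554 to 62886352) had a ratio of 0.63. The starts of Tet1-209 and Tet1-202 fell inside peaks of 482 and 697 bp. In all 14 peaks overlapped the gene, 10 of them with their centre between the 5′ end and the midpoint. A gap of 34.7 kb without a listed peak took up much of the 3′ part (62808976 to 62843671). Perfect octamers stood in a peak of 378 bp just past the 3′ end (62804007 to 62804384) and in a peak of 846 bp upstream, over a start of Dna2 (62946580 to 62947425).

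Tet2 lies on chromosome 3 (133463679 to 133545139, minus strand), with no other protein-coding gene in its window. One peak of 1431 bp (133543873 to 133545303) covered its 5 upstream starts, the principal one of 1912 codons included. It held 131 CG, and its ratio of 0.86 was the highest of the peaks over a member's own start. A run of 8 peaks followed in introns 1 and 2, from 11.2 to 38.4 kb from the 5′ end. The widest of the run, 1199 bp (133533390 to 133534588), held an OCT4::SOX2 match 501 bp from its centre and was the widest distal peak of all 9 windows. After the run, 51.7 kb held no listed peak (133454825 to 133506487), the largest gap of the 9 windows, and all 5 of the other annotated starts of Tet2 lay in it. Thus 9 of 9 peak centres in the gene lay before its midpoint.

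Tet3 lies on chromosome 6 (83362373 to 83459084, minus strand). The 5′ end of Tet3-204 lay 1783 bp from a peak of 1775 bp (83455527 to 83457301), which covered the principal start, Tet3-203, of 1803 codons. This peak held 170 CG, with a ratio of 0.76, and GC boxes at 9 places. A further peak of 1111 bp (83441020 to 83442130), with 61 CG and a ratio of 0.56, covered the other 3 starts, 17.4 kb from the 5′ end. Among them is Tet3-202, which encodes 1668 codons. A peak of 599 bp in intron 3 (83421702 to 83422300) held an OCT4::SOX2 match 41 bp from its centre. It counts as promoter-proximal because a start of another gene lay 710 bp away. Upstream of Tet3 the list was sparse, with 3 peaks and a gap of 33.6 kb.

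Tdg, which excises oxidised cytosines and thymine from mismatches with guanine, lies on chromosome 10 (82629828 to 82650799, plus strand) and had the fewest peaks. A peak of 1298 bp (82629179 to 82630476) covered the annotated 5′ end and the principal start of 421 codons. It held 97 CG, with a ratio of 0.81, and a CRE word, TGACGTCA. A peak of 362 bp in intron 1 was the only other one in the gene. The 7 starts between 11.3 and 17.1 kb from the 5′ end lay outside listed peaks, although the 300 bases around that of Tdg-210 had a ratio of 0.94. A peak of 556 bp over a start of the neighbour Glt8d2 (82652692 to 82653247) held a perfect octamer.

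At the annotated 5′ end, 5 of the 9 genes had a listed peak at most 1000 bp away (Dnmt3a, Dnmt3b, Uhrf1, Tet2 and Tdg), beside 66.1% of protein-coding genes. The annotated end is often that of a minor transcript. By the principal transcripts, 7 of the 9 genes had a start inside a peak, all but Dnmt3l and Tet1, beside 61.9% of the 21851 protein-coding genes with such a transcript. Of the 80 annotated starts of the members 37 lay inside a listed peak, beside 39.2% of all annotated starts. RefSeq gives 16 promoters for the 9 genes, from 250 bases before to 50 after a start, and 13 of these overlapped a listed peak, beside 48.9% of all RefSeq promoters. The other 3 were the outer promoter of Dnmt1 and 2 promoters of Dnmt3l.

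Starts inside and outside peaks differed in CpG content as they did in the genome as a whole. Around the 37 starts inside a peak, the median CpG ratio of the 300 bases (250 before the start and 50 from it on) was 0.73, with quartiles of 0.59 and 0.96. Around the 43 starts outside it was 0.22, with quartiles of 0.13 and 0.36. Over all annotated starts the medians were 0.78 and 0.21. Of the 36 member starts with a ratio of at least 0.5, 31 lay in a peak, and of the 44 below, 6 did. The corresponding shares for all starts were 85.3% and 10.8%. The 5 CpG-rich starts outside peaks all belonged to Tdg. Many of these starts lie within a few bases of each other and share a peak, so they are not independent.

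**Figure D3:**
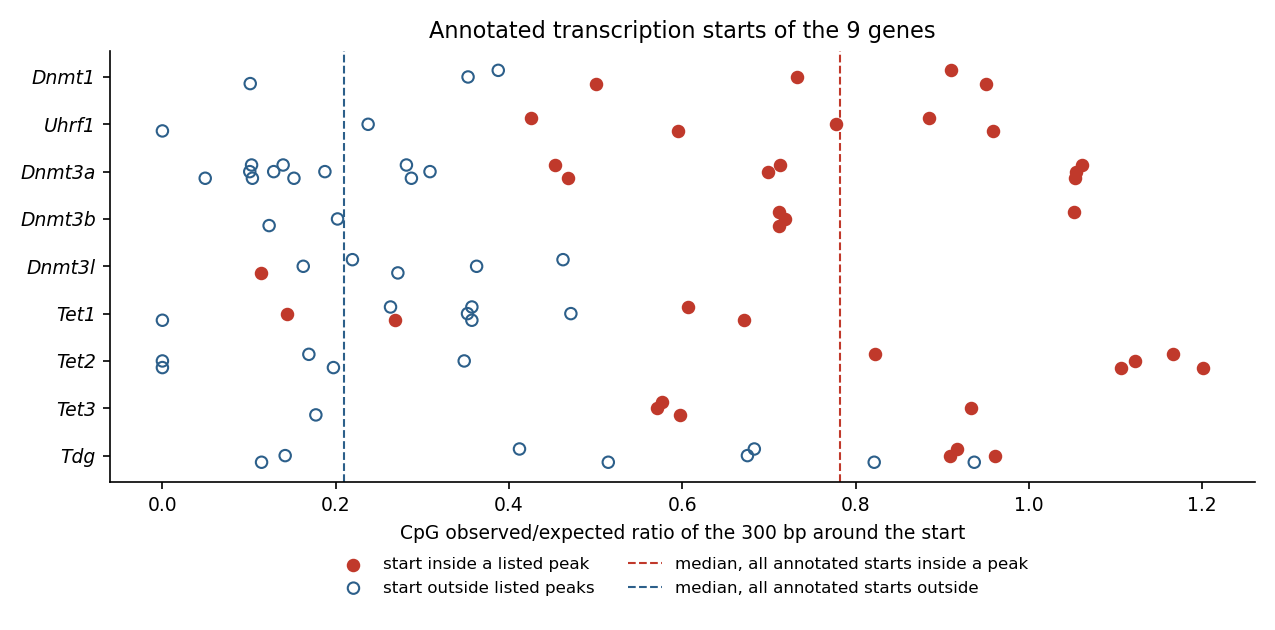
CpG observed/expected ratio of the 300 bp around each annotated start of the 9 genes, filled where the start lies inside a listed peak and open where it does not. Dashed lines are the medians over all annotated starts, inside (red, 0.78) and outside (blue, 0.21) listed peaks. All starts of Dnmt3l lie below 0.5, and the open points above 0.5 belong to Tdg.

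The peaks in the members' windows had widths between 150 and 2829 bp, with a median of 465 bp (95% interval from order statistics 378 to 556), beside 415 bp for the whole list. The 56 promoter-proximal peaks had a median width of 932 bp, beside 815 bp for the whole list, and the 94 distal peaks one of 376 bp, beside 352 bp. The narrowest were 2 peaks of 150 bp in intron 3 of Tet1 (62860394 to 62860543 and 62862519 to 62862668). The promoter-proximal peaks had a median CpG ratio of 0.56 (interval 0.40 to 0.66) and the distal peaks one of 0.20 (0.16 to 0.24), beside 0.58 and 0.22 in the whole list. Both intervals for CpG held the whole-list value. By the base at its centre, 81 peaks were intronic (54.0%, beside 44.4% of the list), 37 intergenic (24.7%, beside 38.3%), 17 (11.3%, beside 7.96%) in UTR exons, 12 (8%, beside 5.50%) in coding exons and 3 (2%, beside 3.86%) in non-coding exons. These shares are not like for like, because the members were taken in and around genes and the whole list was not. In the 9 genes, each longer than 20 kb, 41 of 57 peak centres inside a gene lay before its midpoint (71.9%). Over all 10159 protein-coding genes of at least 20 kb this share was 54.6%. The genes contributed unevenly, with Tet1 and Tet2 giving the most centres. Before and after the midpoint lay 10 and 4 in Tet1, 9 and 0 in Tet2, 6 and 3 in Tet3, and 5 and 2 in Dnmt1. The counts were 4 and 3 in Dnmt3a, 3 and 1 in Dnmt3l, 2 and 2 in Dnmt3b, 1 and 1 in Uhrf1, and 1 and 0 in Tdg.

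**Figure D4:**
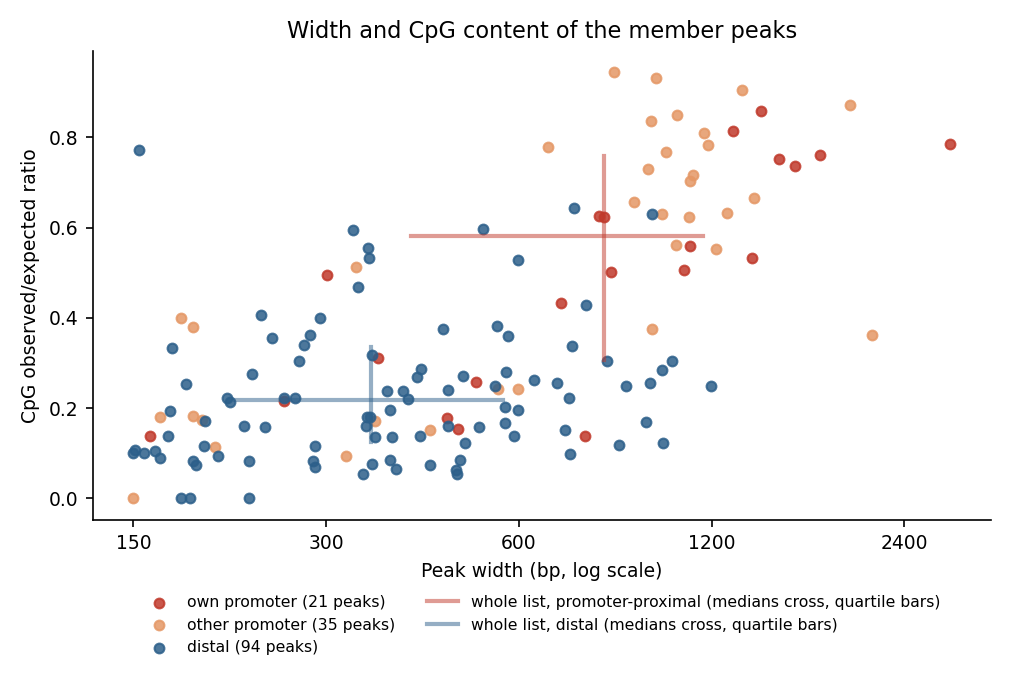
Width (bp, log scale) and CpG observed/expected ratio of the 150 member peaks, coloured by class. Crosses give the medians and quartiles of all promoter-proximal (red) and all distal (blue) listed peaks. Wide peaks at the upper right are promoters of the genes and their neighbours, and the Dnmt3a promoter is the point farthest to the right.

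Motifs were searched on both strands as fixed words, so that a match is a description of the sequence and not a bound site. OCT4::SOX2 was matched in 5 of the 150 peaks (3.33%, interval 1.09% to 7.61%), beside 1.31% of the whole list and 1.27% of listed peaks of the same class and width. The interval held both shares. By gene, 4 of the 9 windows (Dnmt3b, Dnmt3l, Tet2 and Tet3) held such a peak, beside 9.66% of protein-coding genes. The windows are not alike in this, since those of the members held a median of 17 peaks and those of protein-coding genes one of 10. Of the 5 peaks, 4 had their centre in an intron of the member gene, and all 4 lay more than 5 kb past the annotated 5′ end. None of the 16 RefSeq promoters held a match, and 0.715% of all RefSeq promoters did. The octamer ATGCAAAT was found in 4 peaks (2.67%, beside 2.56%) and none of these overlapped a member gene. The SOX words CCATTGTC, CCATTGTT, CCTTTGTC and CCTTTGTT were found in 19 peaks (12.7%, as in the whole list with 12.7%). The word TCAAGGTCA of ESRRB, a nuclear receptor of ES cells, was found in 6 peaks (4.00%, beside 2.82%) and the KLF word in 17 (11.3%, beside 9.38%). Among listed peaks of the same class and width the shares were 2.72% for ESRRB and 9.78% for KLF.

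**Figure D5:**
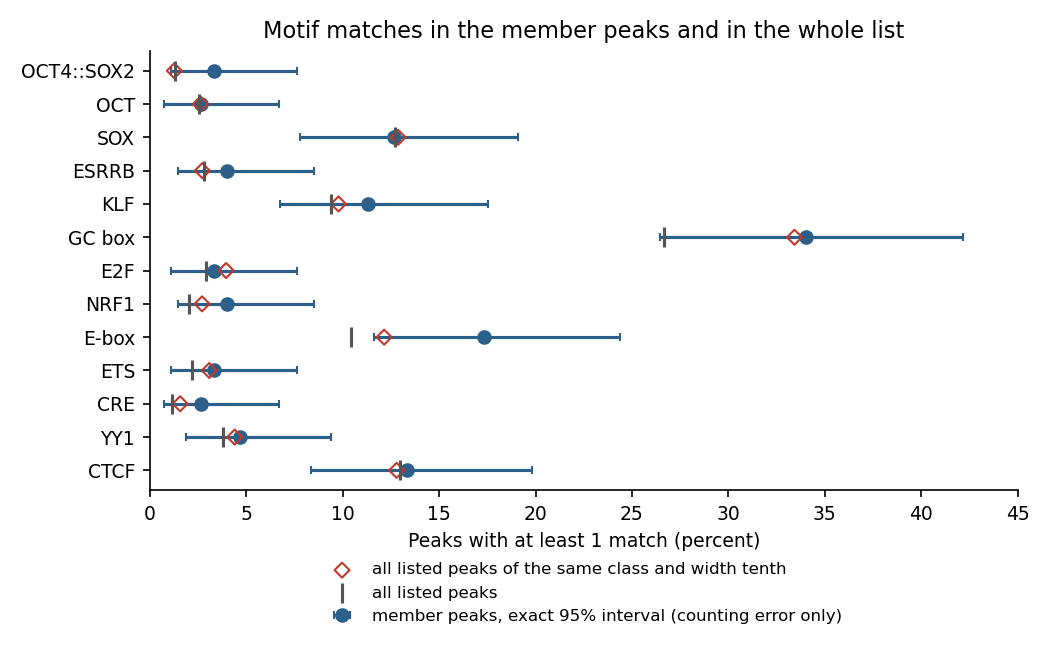
Share of peaks with at least 1 match to each of 13 motifs. Points are the 150 member peaks with exact 95% intervals that cover counting error only, diamonds all listed peaks weighted to the same class and width, and ticks all listed peaks. The E-box is the only motif whose interval lies above the tick, and its diamond lies inside the interval.

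Of the words of promoters, the GC box was the most frequent in both the members and the list. Its word and the E-box have 6 letters, and the E2F, NRF1, ETS, CRE and YY1 words have 8. This order is thus not like for like. The GC box stood in 51 member peaks (34.0%), beside 26.7% of the list and 33.4% of listed peaks of the same class and width. The E2F words TTTCCCGC, TTTCGCGC, TTTGCCGC and TTTGGCGC stood in 5 peaks (3.33%, beside 2.92% of the list and 3.96% after this weighting). The NRF1 word GCATGCGC stood in 6 (4.00%, beside 2.05% and 2.71%). All peaks with an E2F or NRF1 word were promoter-proximal, whereas 16 of the 51 with a GC box were distal. The E-box CACGTG, the word of MYC and USF factors, stood in 26 peaks (17.3%, interval 11.6% to 24.4%), beside 10.4% of the list and 12.2% after weighting. Of the 13 motifs this was the only one whose interval left out the whole-list share, and it held the weighted one. The ETS word CCGGAAGT stood in 5 peaks (3.33%, beside 2.21%), the CRE word in 4 (2.67%, beside 1.17%), the YY1 word AAGATGGC in 7 (4.67%, beside 3.79%) and a CTCF match in 20 (13.3%, beside 13%). For every motif but the E-box the interval thus held the whole-list share, whereas the number of words within single promoters, of E2F in Uhrf1 and Dnmt1 and of GC boxes in Dnmt3a, was reached by few listed peaks. These promoters were singled out after their values were seen, and all 3 are wide, which gives a word more room.

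For 29 other genes of the pathway, the windows held a median of 13 listed peaks, beside 17 for the 9 members. Per 100 kb of window their median was 9.79, with quartiles of 7.62 and 15.1. That is near the 9.92 of the members, and the median of all protein-coding genes was 6.97. Of the 29 genes, 24 had a peak within 1000 bp of the 5′ end, beside 66.1% of protein-coding genes. The 8 genes of the MBD and Kaiso families, most of them readers of methylated DNA, had 3 to 23 peaks, the 9 cofactors and regulators, a list that also holds the methyltransferase gene Dnmt3c, 7 to 24, the 10 genes of demethylation and repair 2 to 21, and the 2 genes of methyl donor supply 8 and 15. The most peaks were found for Usp7, a deubiquitinase that binds UHRF1 and DNMT1, with 24, Mbd3, a subunit of the NuRD complex, with 23, and Zfp57, which guards imprints, and Gadd45b with 21 each. The fewest were found for Cxxc4 with 2, Zbtb33, the gene of the reader Kaiso, with 3, and Neil2, a repair glycosylase, with 4. Zfp57, Smug1 and Dnmt3c were among the genes without a peak within 1000 bp, and their nearest peaks lay 1161, 1361 and 1715 bp away. Dnmt3c, the methyltransferase of the male germline, thus lacked a peak at its 5′ end while Dnmt3b next to it had one, and its window shares peaks with that of Dnmt3b. As a check of the cell type, 8 of 10 ES cell markers had a peak within 1000 bp of the 5′ end, as had 4 of 4 trophoblast, 3 of 3 endoderm and 2 of 3 fibroblast markers. Over all protein-coding genes this share was 66.1%. Presence in the list thus does not tell these types apart.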

How the data were processed

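ATAC-seq libraries were aligned by the authors to GRCm38 with STAR 2.6.1c, stripped of duplicates with Picard, and peaks were called with MACS2 2.1.1.20160309 and merged over the dox-treated libraries with BEDTools. The deposited values are the coordinates of these merged peaks, 3 columns with no score, count or library value. The methods name a removal of peaks over 5000 bp, but 7 are in the list (0 among the members). Coordinates are printed counted from 1. Genes and starts were taken from GENCODE M21, promoters from RefSeq (GRCm38.p6), sequence from the same build. The members and gene lists were chosen with earlier results of these data known. Peaks named in the text are those at or nearest the members' starts, those with an OCT4::SOX2 or octamer match, the widest and narrowest, and those beside the largest gaps. The Dnmt3a peak with KLF words was added after its values were seen. Motifs were searched as consensus words, OCT4::SOX2 with at most 2 mismatches and CTCF with at most 1. Weighted shares average the whole list's share by class and width group (10 per class). Matches that overlap were counted as 1 place. Values of some genes of the pathway lists are not reported here. No test was run, since nothing is replicated. Functions were tested on simulated data. The versions were numpy 2.4.6, scipy 1.17.1, pandas 2.3.3 and Python 3.11.15.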

Additional observations from a re-analysis of the deposited data

How the results depend on the processing

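Of 56 alternative values, 42 stayed within 1.5 times the count or within the 95% interval of the value in the report, and 14 moved. With a flank of 10000 bp the members had 73 peaks, a median of 7 per gene, and 76.7% of peaks nearest to the member, and the other pathway genes had a median of 5. With a flank of 100000 bp, 33.5% were nearest to the member and the other pathway genes had a median of 25. Counting genes of every type, 32.7% were nearest to the member. Keeping only peaks of at least 300 bp gave a median of 6.85 peaks per 100 kb and a median width of 650 bp. With at most 500 bp to a start 29.3% of the peaks were promoter-proximal, and with starts of protein-coding transcripts alone 28.7%. With at most 2000 bp, 8 of the 9 genes had a peak at the 5′ end. All these values are of the members or of the other pathway genes alone. Those of the whole list and of all genes under the same settings are not given here. The whole-list and all-gene values of the main setting are thus not their comparators. OCT4::SOX2 matches fell to 0% of the peaks with at most 1 mismatch, and the reversed consensus also gave 0%. The whole-list share is not given for either setting, so neither value can be judged against the list. Some directions are set by how the alternative was built, but the size of a move and its cause were not tested. No paired analysis was possible because only merged coordinates were analysed, without any replicate's values. The list records a peak seen in 1 library and in all of them alike, depth is unknown, and neither absence from the list nor peak number measures how open a gene was.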
